A study of Mus musculus with 12 samples.

Results

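The genes described here encode cyclic nucleotide phosphodiesterases: Pde1a, Pde1b, Pde1c, Pde2a, Pde4a, Pde4b, Pde4d, Pde7b, Pde8b and Pde10a, 10 of the 24421 genes counted in the mouse dorsal hippocampus. They were taken from the count files by gene symbol, and they were selected on counts already seen in these libraries, differences between the genotypes included. Genotype values, and the adjusted p-values beside them, therefore describe where each gene lay in a fit over all genes and are not independent evidence. All 10 genes passed the filter on low counts. Polyadenylated RNA from 12 male mice of the strain 129sv/C57BL/6j, 4 to 5 months old, was sequenced, 1 library per mouse. The 4 groups held 3 mice each: Mbnl2 WT (wild type) house controls, Mbnl2 WT mice after training, Mbnl2 KO (knockout) house controls and Mbnl2 KO mice after training. Mbnl2 encodes a muscleblind-like protein, an RNA-binding regulator of alternative splicing. The labels name no targeted allele, no training task and no interval before dissection, so the comparisons ask how these transcripts differed with genotype and with training.

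The libraries held between 19737929 and 27427076 counts, and levels are given as CPM, the counts of a gene relative to library sizes scaled by TMM. A count of 3 corresponded to between 0.109 and 0.152 CPM of the total counts, here without TMM scaling, which covers counting error only. Gene-level Mbnl2 lay between 315 and 365 CPM in the WT libraries and between 454 and 542 CPM in the libraries labelled KO. A count summed over all exons does not check a partial deletion, and directions below refer to the libraries labelled KO. Markers of dentate granule neurons (10 of 10), CA1 neurons (7 of 7) and CA3 neurons (6 of 6) were in the files, and no marker of any list used below was at 0 in all 12 libraries. Striatum and septum markers summed to 947 CPM in WT house control 3, 983 CPM in KO house control 2 and 1355 CPM in KO trained 2, and to between 199 and 312 CPM in the other 9 libraries. Choroid plexus markers ranged from 161 to 22722 CPM. In bulk tissue, fewer cells of a type and less RNA per cell cannot be told apart.

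Cyclic nucleotide phosphodiesterases break down cyclic AMP and cyclic GMP, second messengers that carry signals from receptors to protein kinases, ion channels and transcription factors such as CREB. In the hippocampus cyclic AMP signalling is known for its part in synaptic plasticity and memory. The PDE1 enzymes hydrolyse both nucleotides and are switched on by calcium and calmodulin. PDE2A is stimulated by cyclic GMP, PDE4, PDE7 and PDE8 enzymes are specific for cyclic AMP, and PDE10A, which accepts both, is known for its abundance in striatal medium spiny neurons.

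Pde1a, Pde2a and Pde4a varied together across the libraries, as did other pairs of these genes given below. The sequence before some start sites of Pde1a, Pde2a and Pde4a is shown. The windows are the most upstream ones of Pde1a and Pde2a, and those of Pde1a and Pde4a picked because they hold the core TGACG. The most upstream window of Pde4a, which holds 0 matches, is not shown. The sequences are RefSeq windows of build GRCm38.p6 (mm10), written 5′ to 3′ on the strand of the gene, without bases that belong to an annotated exon. Capitals mark the letters TGACG or their reverse complement, the core of the cyclic AMP response element TGACGTCA.
Pde1a, most upstream start, chr2:80129459-80129662, minus strand, outside the gene: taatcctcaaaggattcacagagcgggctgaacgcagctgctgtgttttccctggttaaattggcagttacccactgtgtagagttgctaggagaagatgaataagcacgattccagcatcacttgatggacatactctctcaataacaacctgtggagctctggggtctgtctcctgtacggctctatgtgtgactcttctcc
Pde1a, internal start, chr2:80039030-80039152, minus strand, intron: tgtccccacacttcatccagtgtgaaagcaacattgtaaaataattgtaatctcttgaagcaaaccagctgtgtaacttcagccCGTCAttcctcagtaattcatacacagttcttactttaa
Pde2a, most upstream start, chr7:101421441-101421690, plus strand, outside the gene: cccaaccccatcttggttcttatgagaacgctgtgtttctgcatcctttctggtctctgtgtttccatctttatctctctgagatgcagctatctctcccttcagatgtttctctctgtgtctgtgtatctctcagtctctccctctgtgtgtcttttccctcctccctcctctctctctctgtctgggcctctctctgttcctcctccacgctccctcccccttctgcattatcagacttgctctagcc
Pde4a, internal start, chr9:21183851-21184100, plus strand, intron: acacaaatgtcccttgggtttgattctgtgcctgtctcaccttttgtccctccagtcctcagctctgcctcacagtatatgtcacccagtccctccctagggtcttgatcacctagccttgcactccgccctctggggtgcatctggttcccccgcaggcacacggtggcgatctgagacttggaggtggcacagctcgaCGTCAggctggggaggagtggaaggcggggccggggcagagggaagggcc
Both strands of the 250 bases before each start were searched. The full element TGACGTCA was in 0 of the 31 windows of these 10 genes and in 1.55% of all 32851 windows of that length. The core TGACG, which the full element also contains, was in 3 of the 31, in 1 window each of Pde1a, Pde4a and Pde4b, and in 17.8% of all windows. A match is only a description of the letters. Counts were summed over a whole gene, so they do not tell which start was used.

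Levels between genes were compared per kilobase of annotated exon over the 12 libraries. Pde2a was the most abundant, at 60.7 ± 11.2 CPM per kilobase (SD, n = 12), followed by Pde1b at 36.4 ± 13.6 and Pde1a at 25.6 ± 7.99. Pde8b (16.3 ± 2.34), Pde4a (15.3 ± 1.86) and Pde10a (13.01 ± 8.13 CPM per kilobase) came next. Lower were Pde4b at 8.64 ± 1.60, Pde4d at 5.52 ± 0.764 and Pde7b at 2.50 ± 1.04 CPM per kilobase. Pde1c was scarce, at 0.450 ± 0.248 CPM per kilobase, place 16 among the 21 catalytic phosphodiesterase genes counted. In the order of all 21 genes each gene's range over the libraries overlapped that of its neighbour. Among the 10 described here the same held except for Pde7b (1.31 to 4.29 CPM per kilobase) and Pde1c (0.208 to 0.952), which did not overlap. Of the 11 genes of the family not described further, Pde8a was the highest at 5.53 CPM per kilobase, and Pde6a, Pde6b and Pde6c, subunits of the photoreceptor enzyme, were at 0 counts in at least 1 library each.

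**Figure D1:**
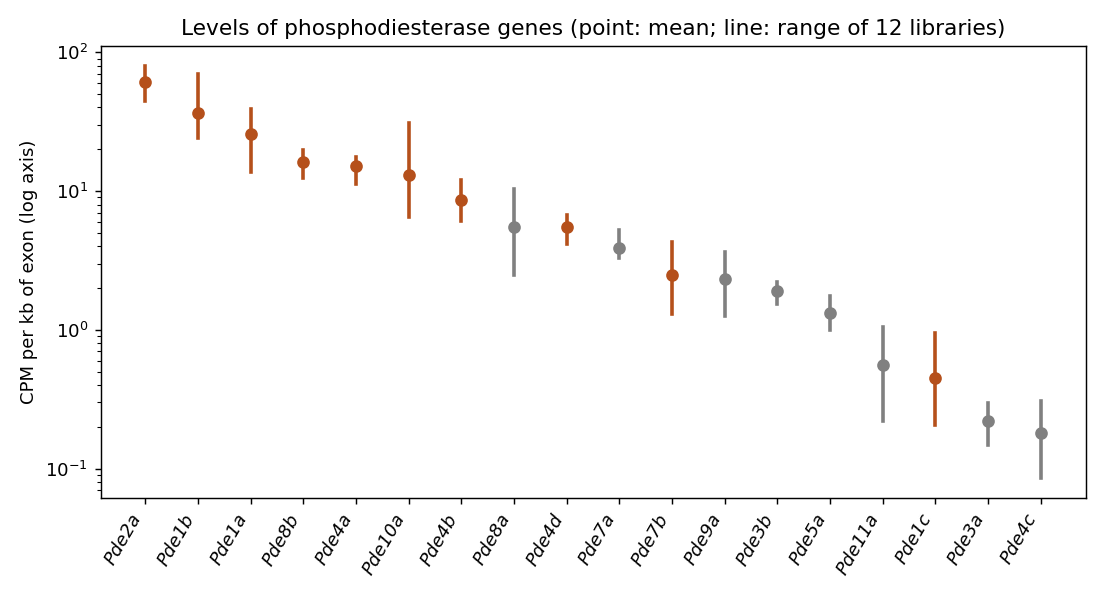
Mean level (point) and range over 12 libraries (line) of phosphodiesterase genes, in CPM per kilobase of exon on a log axis, with the 10 genes described here in orange and others in grey. Levels fall from 60.7 CPM per kilobase for Pde2a to 0.450 for Pde1c among the 10, and of these only Pde7b and Pde1c are neighbours whose ranges do not overlap.

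Pde1a (chromosome 2, 79834453 to 80129458, minus strand, mm10) encodes a calcium- and calmodulin-activated enzyme and was higher in all 6 libraries labelled KO than in any of the 6 WT libraries. WT house controls had 110.2, 90.4 and 81.9 CPM, and KO house controls had 165, 175 and 178 CPM. After training, WT mice had 161, 126 and 123 CPM and KO mice 196, 236 and 207 CPM. Within each treatment the genotypes did not overlap, and over both treatments the lowest KO library (165 CPM) stood just above the highest WT library (161 CPM). Over both treatments Pde1a was 1.69-fold higher in KO (0.76 on the log2 scale with an SE of 0.09, and a Benjamini-Hochberg adjusted p = 0.0108 in edgeR). That test called 1 of the 10 genes, Pde1a, where it called 0.576% of all genes tested.

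Within a single treatment the genotype difference in Pde1a was of similar size but was not called by edgeR. In house controls it was 1.84-fold (log2 0.88, SE 0.13, adjusted p = 0.108), and in trained mice 1.56-fold (log2 0.64, SE 0.13, adjusted p = 0.298). The same test called none of the 10 genes in either treatment, against 0.0128% of all genes in each, while 4 and 2 of them had an unadjusted p under 0.05, as did 10.7% and 6.45% of all genes. DESeq2 called Pde1a in both, with adjusted p = 5.31e-07 and 0.0014, where it called 1.29% and 0.679% of all genes. The authors' deposited tables list the same directions, with a log2 fold change of 0.88 (adjusted p = 1.13e-06) in house controls and 0.64 (adjusted p = 0.0027) in trained mice. In those deposited tables the authors called 0.558% and 0.834% of genes with an adjusted p, and of the 10 genes Pde1a alone. The interaction of genotype and training was -0.24 on the log2 scale (SE 0.19, 95% interval -0.65 to 0.18, edgeR adjusted p = 1.00), so the 2 genotype differences were not shown to differ.

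The edgeR call for Pde1a depended on which libraries were used. With the 4 WT and 4 KO libraries numbered 1 to 8 in the labels, the log2 fold change was 0.68 and the adjusted p 0.386. The libraries numbered 9 to 12 hold 1 mouse per group, and in them KO exceeded WT in house controls (178 against 81.9 CPM) and after training (207 against 123 CPM). Without WT trained 3 the adjusted p was 0.0534, and leaving out any other single library kept the call.

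Markers of CA1 pyramidal neurons moved with Pde1a. All 7 of 7 were detected and all 7 had a positive log2 fold change in KO over both treatments, with a median of 0.49 and 0 called by edgeR. Their summed level was 339 to 646 CPM in WT house controls, 366 to 691 in trained WT mice, 481 to 870.4 in KO house controls and 775 to 888 in trained KO mice. The order of the libraries was not the same in both measures. KO house controls 2 and 3, with CA1 sums of 481 and 544 CPM, had 175 and 178 CPM of Pde1a, and WT trained 1, with a CA1 sum of 691 CPM, had 161 CPM. The CA1 list was not alone. For KO against WT over both treatments all 10 dentate granule, all 10 thalamus, all 14 choroid plexus and all 10 leptomeningeal fibroblast markers were negative. The medians were -0.47, -0.56, -1.36 and -0.89, while 12 of 13 striatum and septum markers were positive (median 1.00). Choroid plexus sums were also uneven. The lowest Pde1a levels, 81.9 and 90.4 CPM, came from WT house controls 3 and 2, which had choroid plexus sums of 22722 and 11458 CPM. WT house control 1, with a choroid plexus sum of 282 CPM, had 110.2 CPM of Pde1a. Over the 12 libraries log2 CPM of Pde1a had an r of 0.67 with the log2 CA1 sum, 0.61 with neocortex and -0.64 with thalamus. With dentate granule neurons r was -0.29, with choroid plexus -0.21, with GABAergic interneurons 0.19 and with striatum and septum 0.03, all as descriptions only. WT house controls 2 and 3 and KO house control 3, chosen for their choroid plexus or thalamus markers, were also left out together. The log2 fold change over both treatments was then 0.63 and was not called by edgeR. That fit left WT house control 1 as the only WT house control. The part of any of these cell types or regions in the Pde1a difference was not tested.

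**Figure D2:**
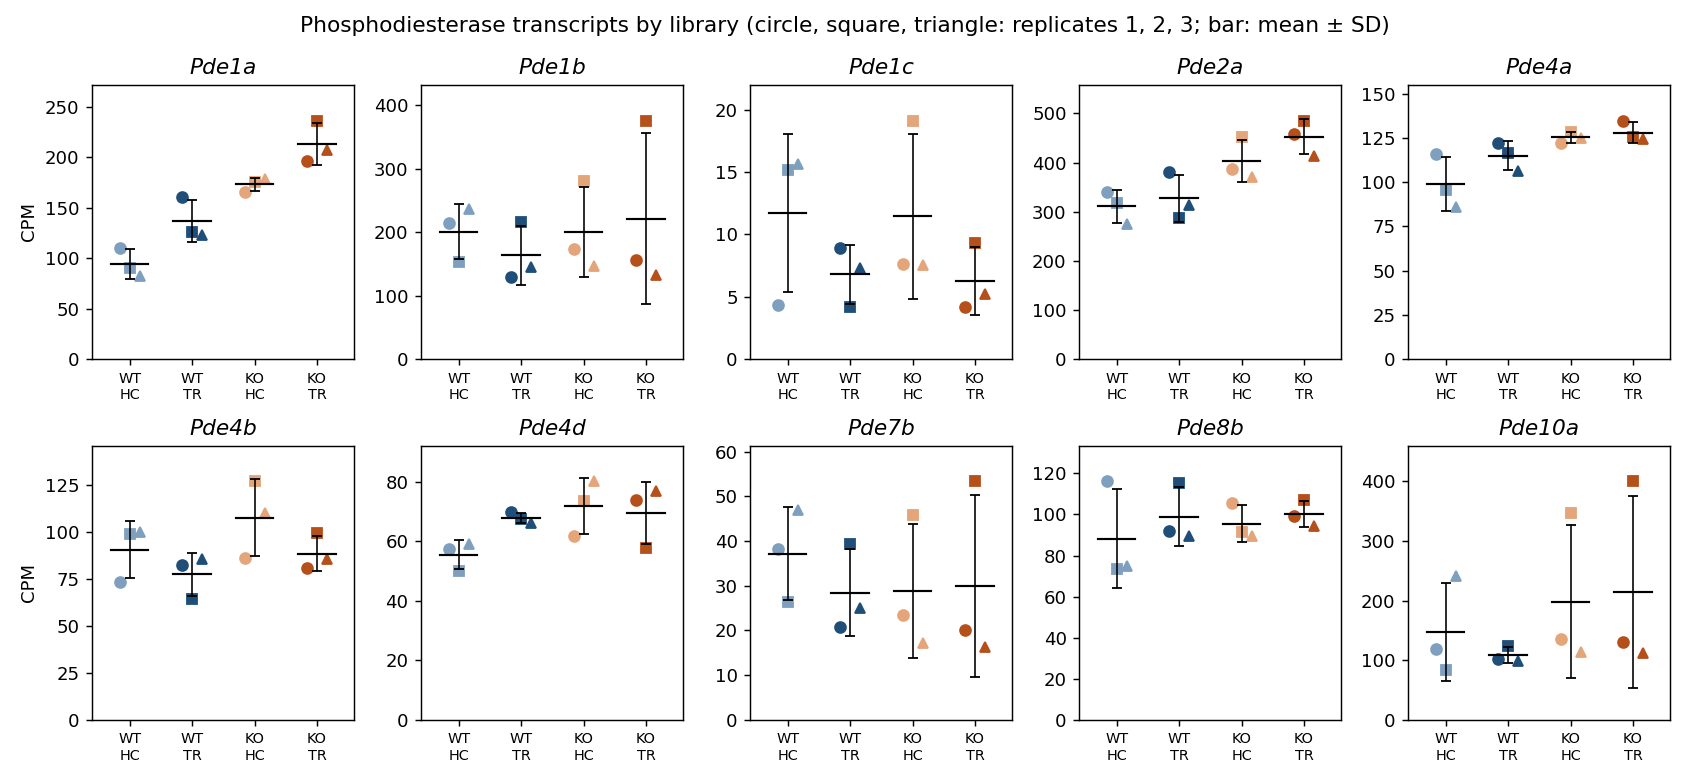
CPM of the 10 genes in each library, by group (WT or KO, HC for house control, TR for trained), with symbols for replicates and a bar at the mean ± SD of 3. Group means of Pde1a run from 94.1 CPM in WT house controls to 213 CPM in trained KO mice, while Pde10a, Pde1b and Pde7b are high in single libraries such as KO TR 2.

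Training went with higher Pde1a in both genotypes, without passing the test. Group means were 94.1 ± 14.5 CPM in WT house controls, 137 ± 20.9 in trained WT mice, 173 ± 6.74 in KO house controls and 213 ± 20.8 in trained KO mice (SD, n = 3 each). Neither genotype's trained libraries overlapped its house controls. The log2 difference was 0.54 in WT (SE 0.13, edgeR adjusted p = 0.502) and 0.30 in KO (SE 0.13, adjusted p = 1.00). Over both genotypes it was 0.42 (SE 0.09, unadjusted p = 0.00102, adjusted p = 0.414), a contrast in which edgeR called 0% of genes and 1744 (11.2%) had an unadjusted p under 0.05. DESeq2 gave Pde1a an adjusted p of 0.00929 there and called 0.442% of all genes. In the authors' deposited tables the adjusted p was 0.225 for WT and 1.00 for KO, and the authors called 0.117% and 0.0716% of genes. Of the 10 genes, 2 (Pde1a and Pde4d) were higher without overlap after training in WT, where this held for 7.01% of all genes, and 1 (Pde1a) in KO, where it held for 3.34%. All 6 neuron-wide and all 7 CA1 markers were also positive for training over both genotypes (median log2 0.19 and 0.25), and all 8 oligodendrocyte markers were negative (median -0.60), as were all 8 astrocyte, all 8 endothelial and all 10 thalamus markers (medians -0.29, -0.34 and -1.04). The part of these cell types in the Pde1a values was not tested.

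Pde1b (chromosome 15, 103503034 to 103530052), another calcium- and calmodulin-activated enzyme, showed no such pattern. Its levels were 214, 153 and 236 CPM in WT house controls and 129, 216 and 145 CPM in trained WT mice. KO house controls had 173, 281 and 147 CPM and trained KO mice 156, 376 and 132 CPM. All groups overlapped, and the 3 highest libraries (KO trained 2, KO house control 2 and WT house control 3) were the 3 with the highest striatum sums. WT trained 2 and WT house control 1 followed at 216 and 214 CPM, and these had the highest sums of dentate granule neuron markers, 1417 and 1276 CPM, against 339 to 994 CPM in the other 10 libraries. Log2 CPM of Pde1b had an r of 0.80 with the log2 striatum sum, 0.70 with neocortex and -0.50 with dentate granule neurons, as descriptions only. The genotype difference was 0.22 on the log2 scale (SE 0.28, 95% interval -0.40 to 0.84, edgeR adjusted p = 0.764) and was -0.19 without the 3 striatum-rich libraries. The training difference was -0.08 (SE 0.28, edgeR adjusted p = 0.904).

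Pde1c (chromosome 6, 56069804 to 56569103), which encodes the remaining PDE1 enzyme, was near the low end of the family. WT house controls had 4.37, 15.1 and 15.6 CPM and trained WT mice 8.86, 4.17 and 7.31 CPM. KO house controls had 7.65, 19.1 and 7.52 CPM and trained KO mice 4.17, 9.31 and 5.20 CPM. The genotypes overlapped, and the log2 difference was -0.08 (SE 0.38, edgeR adjusted p = 0.944). Trained mice had a lower mean, 6.51 against 11.6 CPM, but the groups overlapped (log2 -0.84, SE 0.38, 95% interval -1.68 to 0.01, edgeR adjusted p = 0.445). The 3 highest libraries, KO house control 2 and WT house controls 3 and 2, had the 3 highest sums of oligodendrocyte markers (13722, 12426 and 11807 CPM). The 3 lowest, KO trained 1, WT trained 2 and WT house control 1, had the 3 lowest (3665, 2759 and 3184 CPM). All 8 of 8 oligodendrocyte markers were detected. Their sums were 3184 to 12426 CPM in WT house controls and 2759 to 7897 in trained WT mice. In KO house controls they were 5469 to 13722 CPM and in trained KO mice 3665 to 8732. Other lists also moved with Pde1c, whose log2 CPM had an r of -0.76 with the log2 dentate granule sum over the 12 libraries. With striatum and septum r was 0.72, with GABAergic interneurons 0.61, with choroid plexus 0.56 and with thalamus 0.54. With neocortex it was 0.22 and with CA1 -0.22. These are descriptions only, and the part of any of these cell types or regions in the Pde1c values was not tested.

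Pde2a (chromosome 7, 101421691 to 101512827, plus strand), whose enzyme is stimulated by cyclic GMP, was higher in KO than in WT within each treatment. WT house controls had 341, 318 and 274 CPM against 386, 451 and 370.3 CPM in KO house controls. Trained WT mice had 381, 288 and 314 CPM against 459, 485 and 414 CPM in trained KO mice. The genotypes did not overlap within a treatment, but over both treatments KO house control 3 (370.3 CPM) lay below WT trained 1 (381 CPM). Over both treatments the fold was 1.34 (log2 0.42, SE 0.09, 95% interval 0.22 to 0.62), and edgeR's adjusted p of 0.0761 missed the threshold. With a covariate for library number, low or high as split for Pde1a, the adjusted p was 0.0426 and passed it. That split was inferred from the labels, which name no batch. The adjusted p also passed without WT house control 1 (0.0463). DESeq2 gave 0.00062, in a contrast where it called 3 of the 10 genes and 4.64% of all genes. The difference was 0.37 in house controls (edgeR adjusted p = 0.377) and 0.47 in trained mice (edgeR adjusted p = 0.5, and 0.0608 in the authors' deposited table). In trained mice DESeq2 called Pde2a (adjusted p = 0.0457), in a contrast where it called 0.679% of all genes. The training difference of Pde2a was 0.12 (SE 0.09, edgeR adjusted p = 0.55). Without the 3 striatum-rich libraries the genotype difference was 0.31 (edgeR adjusted p = 0.293). The CA1 markers described for Pde1a also moved with Pde2a, and they were not alone. Over the 12 libraries log2 CPM of Pde2a had an r of 0.73 with the log2 CA1 sum, 0.70 with neocortex and -0.59 with thalamus. With GABAergic interneurons r was 0.48, with dentate granule neurons -0.47, with striatum and septum 0.21 and with choroid plexus -0.21. These are descriptions only, and the part of these cell types or regions in the Pde2a difference was not tested. In the GENCODE annotation 3955 exon bases of Pde2a also belong to Gm45837 on the same strand, which is not a row of the count files used here.

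Pde4a (chromosome 9, 21165714 to 21213248), a cyclic AMP-specific enzyme gene, differed little in size but did not overlap between genotypes. WT house controls had 116, 95.5 and 86.2 CPM and trained WT mice 122.1, 117 and 106 CPM. KO house controls had 122.3, 129 and 125 CPM and trained KO mice 135, 125 and 124 CPM. The gap between the highest WT and the lowest KO library was thus 122.1 to 122.3 CPM. The fold over both treatments was 1.19 (log2 0.25, SE 0.07, edgeR adjusted p = 0.156, DESeq2 adjusted p = 0.0288). The 3 libraries with the lowest Pde4a, WT house controls 3 and 2 and WT trained 3, had the 3 highest choroid plexus sums (22722, 11458 and 11764 CPM). Without WT house controls 2 and 3 and KO house control 3, chosen for their choroid plexus or thalamus markers, the log2 fold change was 0.13. That fit kept WT trained 3 and left WT house control 1 as the only WT house control. Over the 12 libraries log2 CPM of Pde4a had an r of -0.68 with the log2 thalamus sum and -0.57 with choroid plexus. With CA1 and with neocortex r was 0.56 each, with striatum and septum -0.22, with GABAergic interneurons 0.11 and with dentate granule neurons 0.002. These are descriptions only, and the part of these cell types or regions in the Pde4a values was not tested.

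Pde4b and Pde4d, also specific for cyclic AMP, differed from Pde4a in where they varied. Pde4b (chromosome 4, 102087543 to 102607259) had 73.3, 99.0 and 99.999 CPM in WT house controls, 82.3, 64.6 and 85.7 in trained WT mice, 86.2, 127 and 110.3 in KO house controls and 81.1, 99.4 and 85.5 in trained KO mice. Every pair of groups compared overlapped, with a genotype difference of 0.22 (SE 0.12, edgeR adjusted p = 0.432) and a training difference of -0.26 (SE 0.12, 95% interval -0.52 to 0.01, edgeR adjusted p = 0.446). Its highest level, in KO house control 2, and its lowest, in WT trained 2, were in the libraries with the highest and the lowest oligodendrocyte sum. The same libraries had the lowest and the highest dentate granule sum, 339 and 1417 CPM. Log2 CPM of Pde4b had an r of -0.86 with the log2 dentate granule sum over the 12 libraries, a description only. With striatum and septum r was 0.64 and with GABAergic interneurons 0.54. The part of any of these cell types or regions was not tested. Pde4d (chromosome 13, 108449948 to 109953461) had 57.3, 50.2 and 59.3 CPM in WT house controls, below 61.8, 73.7 and 80.2 CPM in KO house controls and below 69.8, 67.7 and 66.4 CPM in trained WT mice. Trained KO mice had 74.0, 57.7 and 77.1 CPM and overlapped both. The genotype difference was 0.37 in house controls (SE 0.12, edgeR adjusted p = 0.356), 0.04 in trained mice (SE 0.12, adjusted p = 0.995) and 0.20 over both treatments (SE 0.09, adjusted p = 0.317). Its interaction was -0.34 (SE 0.17, 95% interval -0.72 to 0.05, unadjusted p = 0.082, edgeR adjusted p = 1.00), in a contrast where edgeR and DESeq2 called 0% of genes and 235 (1.5%) had an unadjusted p under 0.05 by edgeR.

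Pde7b (chromosome 10, 20398004 to 20725078), another cyclic AMP-specific enzyme gene, followed individual libraries rather than groups. It had 38.2, 26.3 and 47.0 CPM in WT house controls, 20.8, 39.3 and 25.0 in trained WT mice, 23.5, 45.7 and 17.1 in KO house controls and 20.1, 53.3 and 16.3 in trained KO mice. The 3 libraries with the highest striatum sums again held the 3 highest values, followed by WT trained 2 and WT house control 1. The log2 difference was -0.15 for genotype (SE 0.34, 95% interval -0.91 to 0.62, edgeR adjusted p = 0.881) and -0.17 for training (SE 0.34, edgeR adjusted p = 0.825).

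Pde8b (chromosome 13, 95024454 to 95250336), whose enzyme has high affinity for cyclic AMP, varied little between groups. WT house controls had 116, 73.4 and 75.1 CPM, trained WT mice 91.8, 115 and 89.7, KO house controls 106, 91.4 and 89.4, and trained KO mice 99.2, 107 and 94.4 CPM. The groups overlapped, with log2 differences of 0.07 for genotype (SE 0.12, 95% interval -0.20 to 0.33, edgeR adjusted p = 0.843) and 0.12 for training (SE 0.12, edgeR adjusted p = 0.646). The 2 highest libraries, WT house control 1 and WT trained 2, were those with the highest dentate granule sums and with 2 of the 3 lowest choroid plexus sums (282 and 161 CPM). The 2 lowest, WT house controls 2 and 3, were rich in choroid plexus transcripts. Over the 12 libraries log2 CPM of Pde8b had an r of -0.80 with the log2 thalamus sum and -0.70 with choroid plexus. With dentate granule neurons r was 0.44 and with neocortex 0.38. These are descriptions only, and the part of these cell types or regions was not tested. In the annotation Pde8b shares 447 exon bases with Gm48420 on the other strand.

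Pde10a (chromosome 17, 8525372 to 8986648) had the widest spread relative to its mean among these genes, from 83.6 to 400.0 CPM. WT house controls had 119, 83.6 and 241 CPM and trained WT mice 102, 124 and 98.7 CPM. KO house controls had 135, 346 and 114 CPM and trained KO mice 129.9, 400.0 and 112 CPM. The 3 high values were again those of KO trained 2, KO house control 2 and WT house control 3, in the order of their striatum sums. KO trained 2 and KO house control 2 also had the highest neocortex sums (332 and 323 CPM) and the lowest dentate granule sums (397 and 339 CPM). Over the 12 libraries log2 CPM of Pde10a had an r of 0.90 with the log2 striatum sum. With neocortex r was 0.75 and with dentate granule neurons -0.76. The part of these cell types or regions was not tested. All 13 of 13 striatum and septum markers were detected, and 12 of 13 had a positive log2 difference in KO (median 1.00, 0 called by edgeR). The genotype difference in Pde10a was 0.70 (SE 0.41, 95% interval -0.20 to 1.60, edgeR adjusted p = 0.457). It was 0.23 without those 3 libraries (edgeR adjusted p = 0.545) and -0.04 when only the 2 KO libraries among them were left out. The training difference was -0.17 (SE 0.40, edgeR adjusted p = 0.852).

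**Figure D3:**
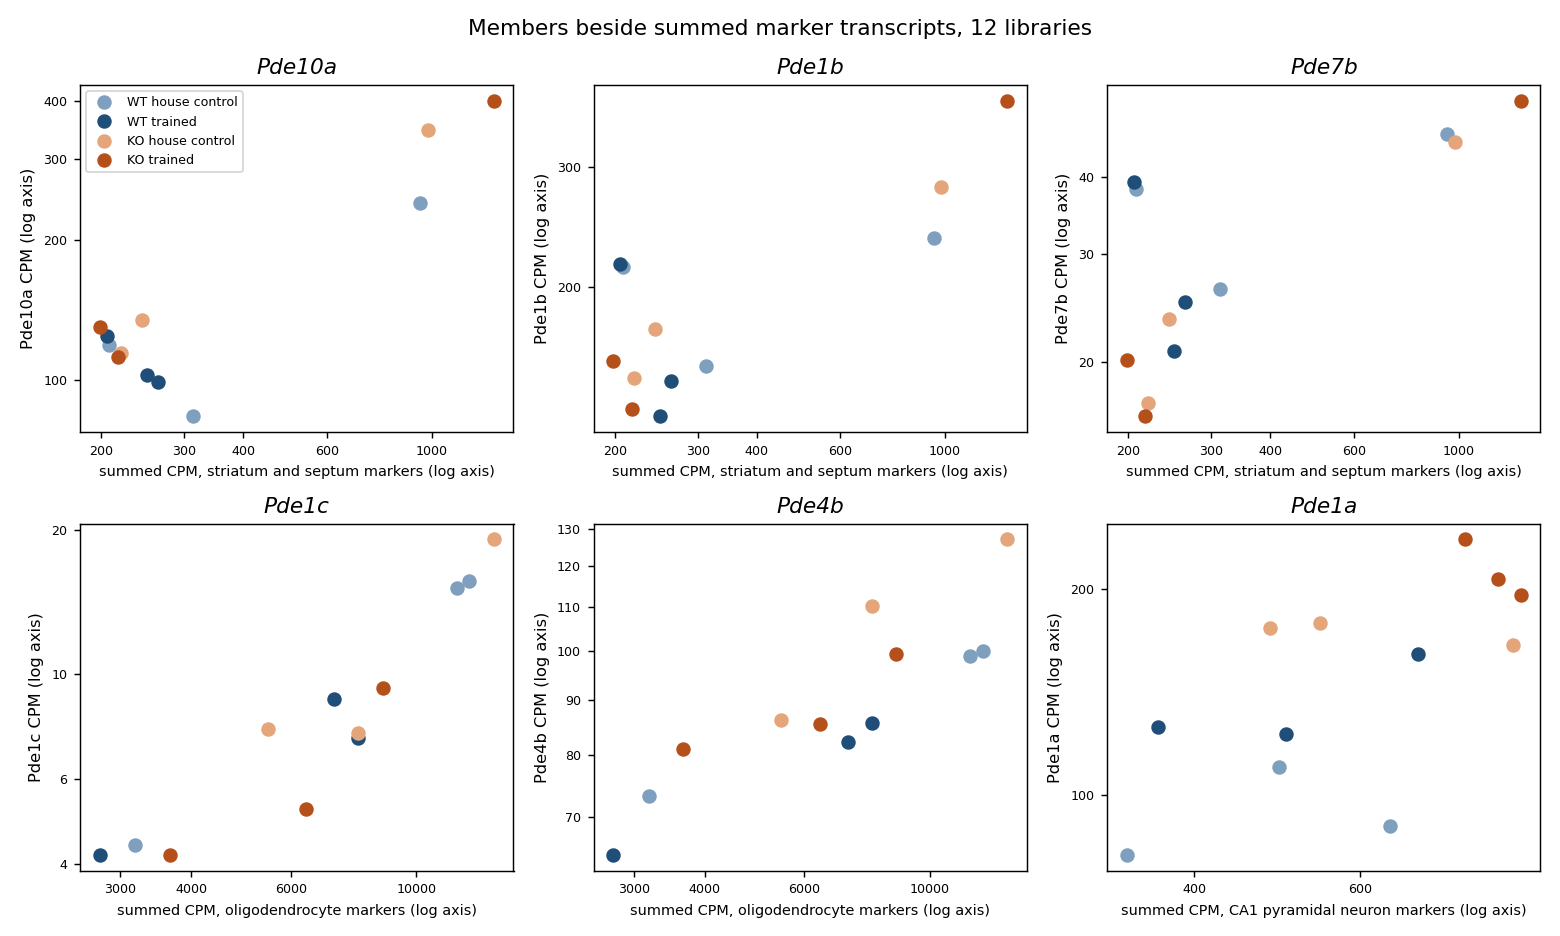
Level of 6 genes (CPM, log axis) against the summed CPM of a marker list in the same library (log axis), coloured by group, for 12 libraries. The 3 libraries with 947 CPM or more of striatum and septum markers are the highest for Pde10a, Pde1b and Pde7b. The 3 highest Pde1c levels are in the libraries with the 3 highest oligodendrocyte sums. For Pde1a the CA1 sums of the genotypes overlap, from 339 to 691 CPM in WT and from 481 to 888 CPM in KO libraries.

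Seen together, 8 of the 10 genes had a positive genotype difference over both treatments, with a median of 0.22, beside 48% of all genes and a median of -0.01. In house controls 4 genes (Pde1a, Pde2a, Pde4a and Pde4d) were higher in KO without overlap, where 6.94% of all genes were. In trained mice 3 were (Pde1a, Pde2a and Pde4a), against 7.61% of all genes. Over both treatments 2 were (Pde1a and Pde4a), against 1.06%. The genes were chosen with these contrasts in view, so nothing is read from the counts. For training over both genotypes 5 were positive and 5 negative, with a median of 0.02. Including the family's other genes, 18 of 21 were tested, 12 were positive and 6 negative for genotype, with a median of 0.07. Of the 8 tested genes not described above, 4 were positive and 4 negative and 0 were called. The smallest p-values among them were those of Pde5a (log2 -0.30, edgeR adjusted p = 0.405), Pde11a (0.52, adjusted p = 0.433) and Pde3a (-0.25, adjusted p = 0.586).

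**Figure D4:**
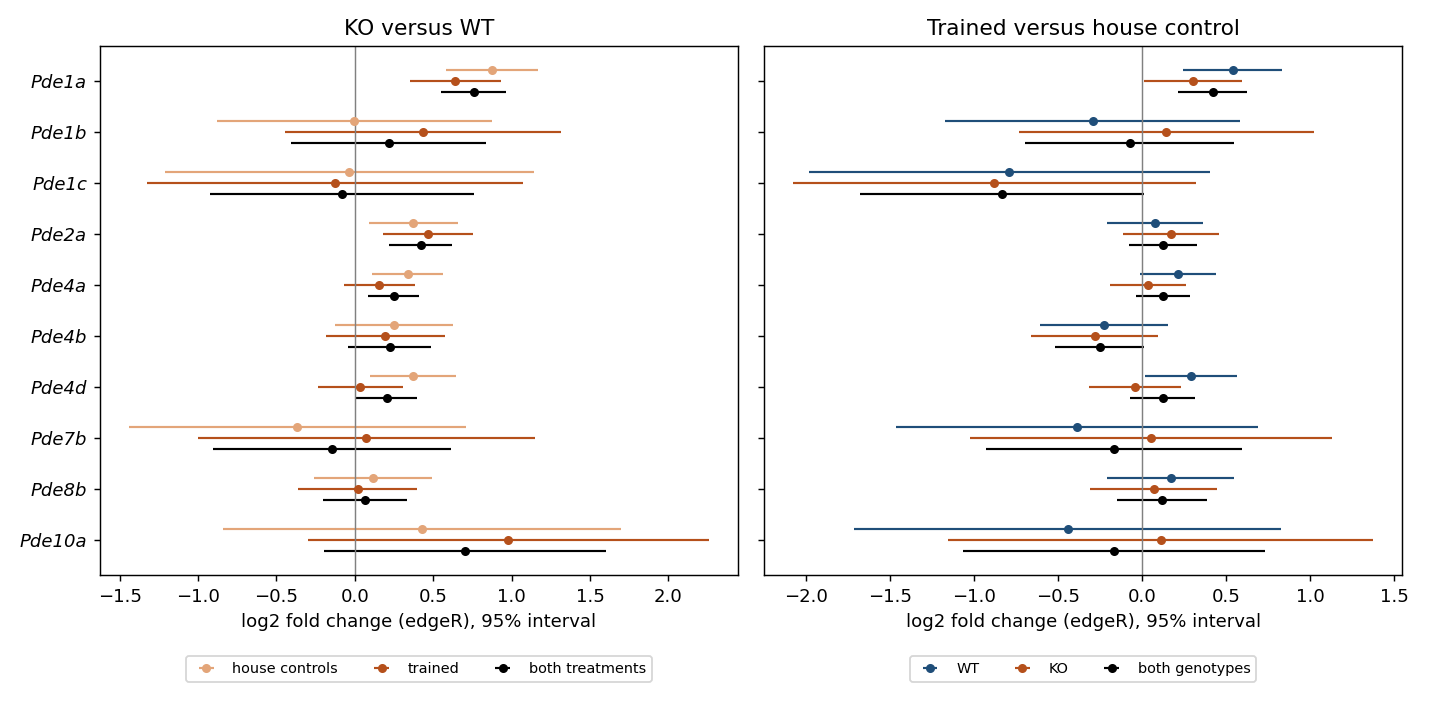
Log2 fold changes from edgeR with 95% intervals for KO against WT (left) and trained against house control (right), within each level of the other factor and over both. Intervals for Pde1a lie above 0 in all 6 contrasts, those of Pde2a in the 3 genotype contrasts, and those of Pde10a, Pde1b and Pde7b are wide and include 0.

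Genes that make, sense or transmit cyclic nucleotides were not shifted as a group. With the other phosphodiesterases they formed lists of 70 genes, chosen with earlier results known, of which 62 were tested and 31 were positive and 31 negative for genotype (median 0.01). By edgeR 0 were called higher and 2 lower, and 10 higher and 6 lower had an unadjusted p under 0.05 (14.4% of all genes in either direction), where 0.192% of all genes were called lower. Crtc2, a CREB coactivator that responds to cyclic AMP and calcium, had 21.4 to 23.9 CPM in WT and 13.4 to 18.4 CPM in KO libraries (22.5 ± 1.11 against 15.9 ± 1.66 CPM, SD, n = 6 each; log2 -0.50, SE 0.08, edgeR adjusted p = 0.0251). Prkar1a, a regulatory subunit that holds protein kinase A inactive until cyclic AMP binds, had 653 to 779 CPM in WT and 537 to 599 CPM in KO libraries (721 ± 46.8 against 566 ± 19.8 CPM; log2 -0.35, SE 0.06, edgeR adjusted p = 0.0294). Neither gene overlapped between genotypes, a description only, as the share of all genes lower without overlap is not reported here. With single libraries left out, edgeR still called Crtc2 in 3 of 12 fits (adjusted p up to 0.0817) and Prkar1a in 2 of 12 (up to 0.0946), while their log2 fold changes kept within -0.55 to -0.44 and -0.36 to -0.32.

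The remaining lists held 0 called genes. Among the 9 tested adenylyl cyclases, which make cyclic AMP, 6 were positive and 3 negative, with Adcy3 at 0.30 (edgeR adjusted p = 0.116), Adcy5 at 0.65 (0.350) and Adcy6 at 0.16 (0.371). Adcy5 was highest in the 3 striatum-rich libraries, at 378 CPM in KO trained 2, 349.7 CPM in KO house control 2 and 235 CPM in WT house control 3, against 118 to 130.01 CPM in the other WT and 149 to 160.4 CPM in the other KO libraries. Of the 7 guanylyl cyclases 4 were positive, with Gucy1a2 at 0.26 (adjusted p = 0.210), Npr1 at -0.74 (0.233) and Gucy1a3 at 0.43 (0.324). Among the 9 tested channels and exchange factors that bind cyclic nucleotides, 4 were positive and 5 negative, with Cngb1 at -0.85 (edgeR adjusted p = 0.230) and Hcn3 at 0.35 (0.275). Of 12 anchors and inhibitors of protein kinase A, 7 were positive, with Akap5 at 0.39 (adjusted p = 0.156), Akap6 at 0.25 (0.248) and Akap13 at 0.40 (0.267). Prkar1b stood at 0.17 (adjusted p = 0.274) and the catalytic subunit gene Prkaca at -0.08 (0.646). In the CREB family Crtc3 was at -0.20 (adjusted p = 0.276) and Crem at 0.19 (0.308).

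Log2 CPM of 14101 genes was compared with that of Pde1a over the 12 libraries. With unnamed gene models passed over, the closest genes were Ppp2r2d (r = 0.98), Apbb1 (0.98), Galnt9 (0.97), Rasal1 (0.95) and Rcan1 (0.95). After each group's mean was removed, their r with Pde1a was 0.76, 0.83, 0.77, 0.65 and 0.82. Galnt9, a glycosyltransferase gene, and Rasal1, which encodes a Ras GTPase-activating protein, were also called in KO (log2 0.64, edgeR adjusted p = 0.00881, and log2 0.75, adjusted p = 0.0183). Ppp2r2d, Apbb1 and Rcan1 were not, at 0.16, 0.19 and 0.13. Among the phosphodiesterases Pde2a (r = 0.89, and 0.76 after removal of group means) and Pde4a (0.89 and 0.71) were closest to Pde1a, at places 72 and 73 of the 14101. Pde4d followed at 0.59, with -0.09 after removal of group means, Pde8b at 0.45, and the others lay between -0.28 and 0.29. Other pairs also varied together, Pde1b with Pde7b (r = 0.92, and 0.99 after removal of group means) and with Pde10a (0.89 and 0.92). Pde7b with Pde10a (0.74 and 0.93) and Pde1c with Pde4b (0.81 and 0.90) did so too. These r values are descriptions over 12 libraries that share tissue composition and group structure.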

How the data were processed

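Gene-level counts of 12 libraries, 1 mouse each, were analysed as deposited. Per the labels' protocols, poly(A) RNA was converted to libraries with NEBNext Ultra II. The submitters' processing notes name cutadapt 1.18, TopHat2 2.1.1 with Bowtie2 2.3.4.2, HTSeq 0.9.1, DESeq2 1.18.1 and mm10. The strand setting of the counting was not given in the sources used here. The authors' deposited comparison tables hold, per the file headers, a mean normalised count (a signal), a log2 fold change with its SE, a test statistic (a score) and p-values with adjusted p-values. They serve only where named.

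Groups came from the labels. Counts were fitted in edgeR 4.0.16 (R 4.3.3; limma 3.58.1) with TMM scaling, filterByExpr (minimum count 10, minimum total 15), 4 group means over all 12 libraries and robust quasi-likelihood tests, with Benjamini-Hochberg adjustment over 15622 genes and a threshold of 0.05. DESeq2 1.42.0, other scaling, no filter and omitted libraries were alternatives. The p-values set a difference between groups against the spread between mice of the same group, as estimated in the fit. No replicate pair held identical counts. On simulated counts for KO against WT over both treatments (15489 genes), 40.3% of genes changed 1.5-fold and 74.2% of those changed 2-fold were recovered.

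The members and all gene and marker lists were chosen with earlier results of these data known. Genes named beyond the members are those called in the pathway lists, some of the smallest p-values of a list and the 5 genes most like Pde1a, unnamed gene models passed over. Annotation was GENCODE M21 and promoters came from RefSeq. Some genes of the lists are not reported here.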

Additional observations from a re-analysis of the deposited data

Results flagged for a closer look

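Each gene's 6 WT and 6 KO libraries were searched for a single library far from the rest with Dixon's criterion at its 95% critical value, 20 groups in all, of which chance flags about 1 in 20. Pde1c in KO house control 2 stood apart from the other KO libraries at 19.1 CPM. Pde10a in WT house control 3 stood apart from the other WT libraries at 241 CPM.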

How the results depend on the processing

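The genotype difference in Pde1a over both treatments stayed positive in all alternatives run. Its edgeR call was lost with the first 8 libraries alone (0.68, adjusted p = 0.386) and, an alternative chosen after seeing the data, without the 3 striatum-rich libraries (0.67, adjusted p = 0.122). It was also lost without the 3 house controls rich in choroid plexus or thalamus markers (0.63), a fit that left 1 WT house control. With single libraries left out the Pde1a difference ran from 0.72 to 0.84. Within house controls that range was 0.79 to 1.01, with an adjusted p of 0.0431 without WT house control 1. DESeq2 called Pde1a within house controls (0.88), within trained mice (0.65) and for training over both genotypes (0.42). It also called Pde2a for genotype within trained mice (0.47, adjusted p = 0.0457) and over both treatments (0.42), and Pde4a over both treatments (0.25). Genes called by DESeq2 and by edgeR numbered 202 and 2 for genotype in house controls, 106 and 2 in trained mice, 725 and 90 over both treatments, 16 and 0 for training in WT, 7 and 0 in KO, 69 and 0 over both genotypes, and 0 and 0 for the interaction. Pde2a over both treatments passed with a covariate, inferred from the labels, splitting the first 8 libraries from the rest (adjusted p = 0.0426). It also passed without WT house control 1 (0.0463), as did Pde4a (0.31, 0.0297).

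Uncalled differences changed sign as follows. With the first 8 libraries alone, training gave 0.15 for Pde10a and 0.072 for Pde1b, and genotype 0.25 for Pde1c, 0.19 for Pde7b and -0.061 for Pde4d in trained mice. Without the 3 house controls, genotype gave 0.74 for Pde1c and -0.11 for Pde8b, training -0.10 for Pde8b, and the Pde1a interaction 0.012. Without both striatum-rich KO libraries, genotype gave -0.036 for Pde10a and -0.25 for Pde1b. Without all 3 striatum-rich libraries, Pde1b gave -0.19 and Pde10a 0.032 for training. With single libraries left out, genotype ranged from -0.086 to 0.36 (Pde1b), -0.37 to 0.052 (Pde1c), -0.50 to 0.013 (Pde7b) and -0.033 to 0.16 (Pde4d, trained), and training from -0.58 to 0.17 (Pde10a), -0.38 to 0.087 (Pde1b) and -0.52 to 0.086 (Pde7b). Crtc2 lost its call at -0.42 (first 8 libraries), -0.44 (3 house controls out) and -0.56 (3 striatum-rich out), and Prkar1a at -0.36, -0.39 and -0.37, without both KO libraries (adjusted p = 0.0849) and with no filter (0.0502). The cause was not tested. No paired analysis was possible because the labels give no replicate numbers and the numbers used follow accession order.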
